A study of Homo sapiens with 9 samples.

Results

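The comparison was between DU145 cells that expressed *FZD6* shRNA2 and DU145 cells that expressed the scrambled shRNA, taken alone. The members were the 3 libraries described as shRNA FZD6 #2 and the 3 described as scramble, 6 of the 9 libraries of the series, and the 3 libraries of *FZD6* shRNA1 were left out except where stated. DU145, an established cell line, was derived from a human prostate cancer, and its genotype is given as WT in every library. All cells carried a hairpin construct, so the control was a cell with a scrambled hairpin and not an untreated cell. The target of shRNA2 has 21 bases and lies in the coding sequence of *FZD6*, and the full target was found in the annotated transcripts of 1 gene, *FZD6*. The labels call the libraries of a group a triplicate and do not say whether they came from separate cultures, so p-values measure the spread between these libraries, which may be technical.

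FZD6 is a Frizzled receptor, a cell-surface protein that binds Wnt ligands and is best known for planar cell polarity and other signaling that does not pass through beta-catenin. A short hairpin RNA is cut by Dicer into a duplex, and the guide strand directs Argonaute proteins to messages that pair with it. A message that pairs along the whole guide is cleaved. A message that pairs only with the seed, the short stretch near the 5′ end of the guide, can also be lowered, mostly through matches in the 3′ untranslated region (3′ UTR), as it is with microRNAs. The guide can start at more than one base because Dicer does not always cut a hairpin at the same place.

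*FZD6* was expressed at 20.9, 20.5 and 20 FPKM in the scramble libraries and at 7.84, 8.79 and 7.69 FPKM with shRNA2. FPKM count fragments relative to transcript length and to the depth of the library, and were summed here over the RefSeq transcripts of a gene. The groups were far apart, and the mean fell by 60.5%, a log2 fold change of −1.24 on log2(FPKM + 1) with a standard error of 0.0541 (limma adjusted p = 0.00235). A two-sided exact permutation test of *FZD6* alone gave p = 0.1, the smallest value that 3 against 3 libraries allow. In bulk RNA, fewer expressing cells and less RNA per cell cannot be told apart. *FZD6* stayed below the threshold when any single library was left out, with adjusted p-values of up to 0.0185 by limma.

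Of 12487 genes that averaged 1 FPKM or more, limma called 2036 at a Benjamini-Hochberg adjusted p under 0.05, a share of 16.3%. Of these, 1093 were higher with shRNA2 (8.75%) and 943 were lower (7.55%). Most called changes were small, with a median size of 0.23 on the log2 scale. A change of at least 1.5-fold on that scale was found for 8 called genes that were higher and 30 that were lower, and 4 and 10 genes changed by at least 2-fold. The 4 rises of at least 2-fold were all entries of short noncoding RNAs listed at 0 FPKM in every scramble library. Among the 10 falls, *FZD6* was the only protein-coding gene of those named below. All 591 genes that met the criteria of the study's methods, an unadjusted p under 0.01 and a 1.2-fold change, were among the called genes (4.73% of genes tested). The libraries of the groups did not overlap for 40.7% of genes.

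The number of calls depended on single libraries. Without scramble replicate 1, 2 or 3, limma called 134, 77 and 186 genes. These were 0.2%, 0.0881% and 0.384% of genes called higher and 0.873%, 0.529% and 1.11% called lower. Without shRNA2 replicate 1 it called 655 genes (2.16% higher, 3.08% lower), without replicate 3 it called 310 (0.713% higher, 1.77% lower), and without replicate 2 it called 2765 (11.6% higher, 10.5% lower). Only 8 genes were called higher (0.0641%) and 56 called lower (0.448%) in the comparison of all 6 libraries and in all 6 that left out a library. The larger changes are therefore described first, and the counts of the gene lists below are given with their range over the same 6 comparisons.

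The 12 largest falls among abundant protein-coding genes whose groups did not overlap were *FZD6* and 11 others (see the plot of levels by library). *MYLK*, the myosin light chain kinase of smooth muscle and nonmuscle cells, had 7.55, 7.69 and 7.01 FPKM in scramble libraries and 3.64, 4.02 and 3.54 FPKM with shRNA2. It fell by 49.7% (log2 fold change −0.83, standard error 0.0542, limma adjusted p = 0.0046). *FASN*, the fatty acid synthase, had 91.0, 90.6 and 87.4 FPKM in scramble libraries and 52.6, 50.6 and 49.4 FPKM with shRNA2. It fell by 43.3% (log2 fold change −0.81, limma adjusted p = 0.00243), and its groups lay far apart. *TRPC4AP*, a substrate receptor of a CUL4 ubiquitin ligase, had 30.2, 28.8 and 29 FPKM in scramble libraries and 17, 17.1 and 17.3 FPKM with shRNA2, a fall of 41.7% (log2 fold change −0.74, limma adjusted p = 0.00235). *SUMO3*, a small ubiquitin-like modifier, had 153, 160 and 162 FPKM in scramble libraries and 98.8, 98.1 and 105 FPKM with shRNA2, a fall of 36.5% (log2 fold change −0.65, limma adjusted p = 0.0046).

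The other named falls were of like size. *CELSR1*, a cadherin of planar cell polarity, went from 5.61, 6.07 and 5.56 to 3.19, 3.31 and 2.99 FPKM (log2 fold change −0.70, limma adjusted p = 0.0046). *NACC2*, a transcriptional repressor with a BTB domain, went from 10.3, 10.3 and 10.1 to 6.16, 6.13 and 5.53 FPKM (log2 fold change −0.70, limma adjusted p = 0.0046). *MYLK*, *FASN*, *TRPC4AP*, *CELSR1*, *NACC2* and *SUMO3* were called in all 6 comparisons that left out a library. *DYNC1H1*, the heavy chain of cytoplasmic dynein, went from 68.7, 75.3 and 67.1 to 40.7, 46.5 and 35.6 FPKM (log2 fold change −0.77, limma adjusted p = 0.0149). *LPP*, a LIM domain protein of focal adhesions, went from 6.24, 6.88 and 6.50 to 3.61, 4.25 and 3.27 FPKM (log2 fold change −0.68, limma adjusted p = 0.0127). *DYNC1H1*, *LPP* and *HEG1* were called in 3 of the 6 comparisons, and *CEMIP2* and *PNMA2* in 5 of 6. Without scramble replicate 2 their adjusted p-values by limma were 0.0723, 0.0671, 0.0628, 0.0531 and 0.0531. *CEMIP2*, a hyaluronidase of the cell surface, *PNMA2* and *HEG1*, an endothelial and epithelial membrane protein, had log2 fold changes of −0.71, −0.65 and −0.65.

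**Figure D1:**
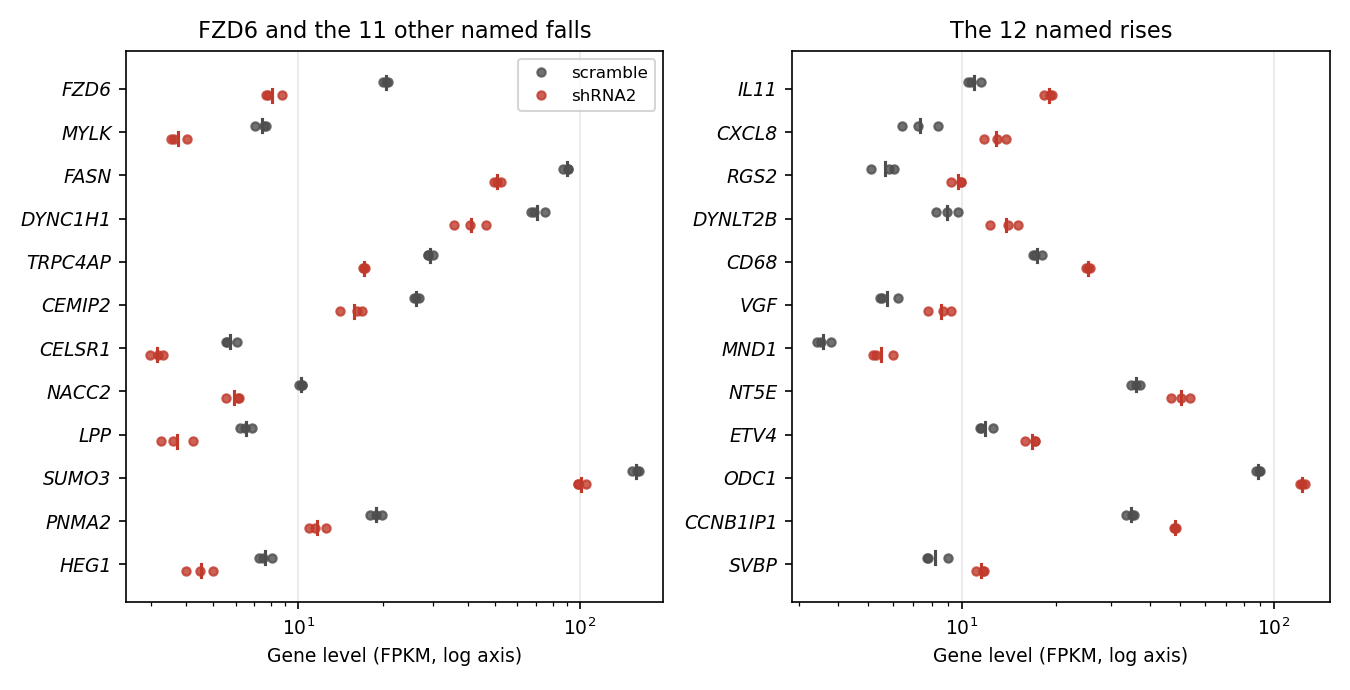
Levels of the 12 named falls, with FZD6 at the top, and of the 12 named rises. Each point is 1 library in FPKM on a log axis, with scramble in grey and shRNA2 in red, and the short vertical line is the mean of 3 libraries. FZD6 lies at 20 to 20.9 FPKM in scramble libraries and 7.69 to 8.79 FPKM with shRNA2, and the groups do not overlap for any gene shown, as the rule for naming required.

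The named falls other than *FZD6* shared a short stretch of the hairpin target in their 3′ UTRs. The stretch is ACCAATTA, bases 11 to 18 of the target counted from its 5′ end in the sense of the message, or a run of 7 bases within it, ACCAATT (bases 11 to 17) or CCAATTA (bases 12 to 18). The sequences below are 27-base windows of the reference transcripts (GENCODE v29, GRCh38), 5′ to 3′ on the strand of the message, and are shown because they carry what these genes have in common. Capitals mark the longest run in each window that equals the target. The window of *PNMA2* is not shown.
MYLK: aacttgactGACCAATTgattttagag
FASN: tcatttttacACCAATTtggtaaaaat
DYNC1H1: acctccacctCCAATTAagctccaccc
TRPC4AP: agcaaataaACCAATTAaatggagact
CEMIP2: aatgttaaagCCAATTAaaaagcatgc
CELSR1: ctggagtctGACCAATTActtcatttt
NACC2: cccaaggaaACCAATTAagaaagccgg
LPP: ggaaattcAGAGACCAATTgactgcca
SUMO3: gggatctatACCAATTAaacattttca
HEG1: gtattaaatgCCAATTAatttgttgta
TTPAL: ttagctaaACCAATTATATactatata

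*TTPAL*, a protein related to the tocopherol transfer protein, is the next fall after the 12 and was added after its values were seen, because its run is among the longest. It had 7.79, 8.08 and 7.82 FPKM in scramble libraries and 4.70, 5.12 and 4.49 FPKM with shRNA2 (log2 fold change −0.63, limma adjusted p = 0.00603). The runs in *TTPAL* and *LPP* have 11 bases, at target bases 11 to 21 and 7 to 17. *TTPAL* holds 4 matches of 7 or more bases in its 3′ UTR, *LPP* holds 3, and *MYLK* and *SUMO3* hold 2 each.

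All windows lie in exons of the 3′ UTR. In build GRCh38 they are at chr17:82078380-82078406 in exon 43 of *FASN*, chr20:35002430-35002456 in exon 19 of *TRPC4AP*, chr21:44805868-44805894 in exon 4 of *SUMO3* and chr3:123613830-123613856 in exon 34 of *MYLK*, all on the minus strand. Also on the minus strand are chr22:46362012-46362038 in exon 35 of *CELSR1*, chr9:136008631-136008657 in exon 6 of *NACC2*, chr9:71684054-71684080 in exon 24 of *CEMIP2* and chr3:124966372-124966398 in exon 17 of *HEG1*. On the plus strand are chr14:102055492-102055518 in exon 78 of *DYNC1H1*, chr3:188884373-188884399 in exon 11 of *LPP* and chr20:44493581-44493607 in exon 6 of *TTPAL*. Exons are numbered from the 5′ end of the longest annotated transcript that holds the longest run.

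Of the 10641 tested genes with an annotated 3′ UTR, 1506 (14.2%) held ACCAATT or CCAATTA on the message strand, and 279 (2.62%) held ACCAATTA. All 11 named falls other than *FZD6* held one of the 7-base matches, and 5 of them held the match of 8 bases. Of the 47 such genes that were lower in all 6 comparisons leaving out a library, 37 (78.7%) held a 7-base match. Of the 979 genes with a 3′ UTR that were called higher, 56 (5.72%) did. None of the named rises with an annotated 3′ UTR held one.

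Read in the other direction, 22.6% of the genes with a 7-base match were called lower (340 of 1506; 95% Wilson interval 20.5% to 24.8%), beside 8.31% of all genes with a 3′ UTR. Among the 279 genes with the 8-base match, 35.5% were called lower (99 genes; interval 30.1% to 41.3%) and 2.87% were called higher, beside 9.2% of all genes with a 3′ UTR. Among the 9135 genes with neither match, 5.96% were called lower and 10.1% higher. The intervals treat genes as independent, which they are not, and cover counting only. The stretch was picked from 15 windows after the values were seen, as described below, and the intervals do not allow for that choice. The median log2 fold change was −0.13 with the 8-base match, −0.05 with a 7-base match alone and 0.04 with none. With the length trend removed, as described below, these medians were −0.09, −0.04 and 0.01. The difference in medians between genes with any 7-base match and genes with none moved from −0.10 to −0.06. With 1 match in the 3′ UTR, 21.1% of 1250 genes were called lower, and with at least 2 matches 29.7% of 256 genes were. Their median transcript lengths were 4133 and 5202 bases. With the length trend removed the shares were close, at 23.5% and 24.6%. Of the 819 genes with a match in the coding sequence and none in the 3′ UTR, 11.7% were called lower, with a median of −0.03.

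**Figure D2:**
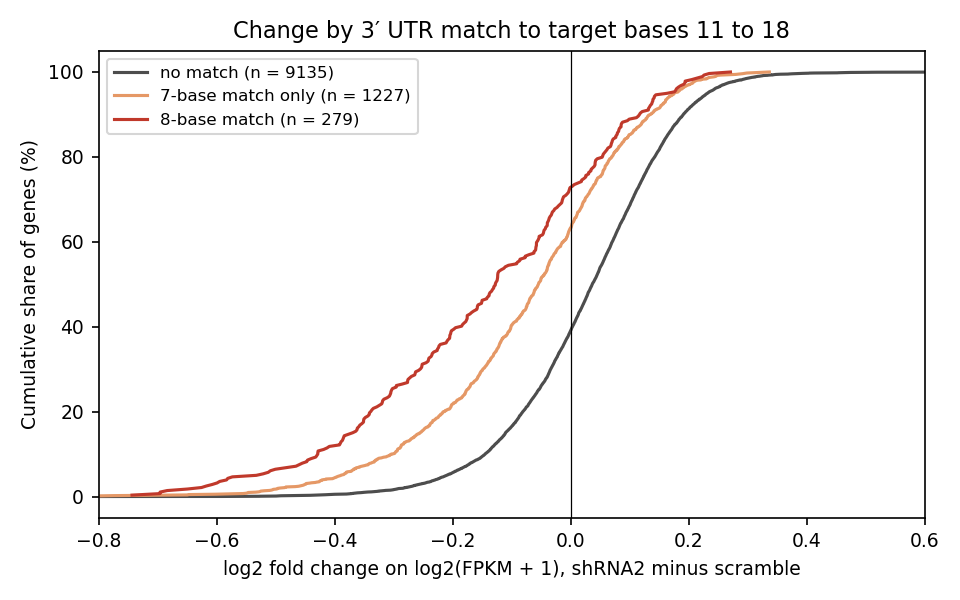
Cumulative share of genes by log2 fold change, shRNA2 minus scramble, for 9135 tested genes with no match, 1227 with a 7-base match alone and 279 with the 8-base match to target bases 11 to 18 in the 3′ UTR. The curve of the 8-base match lies to the left of the others, with medians of −0.13, −0.05 and 0.04.

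The matched bases are not those of the seed of the guide as designed. Bases 2 to 8 of the designed guide pair with target bases 14 to 20 (AATTATA), and 9.08% of the 2314 genes with that match were called lower. Their median log2 fold change was 0.02, near the values of all genes with a 3′ UTR. The stretch was found by taking all 15 windows of 7 bases along the target, after the values were seen. Windows 11 to 17 and 12 to 18 had 24.1% of 997 genes and 25% of 871 genes called lower. The other 13 windows had 8.58% to 13.3%, including the neighbouring windows 10 to 16 (12.9%) and 13 to 19 (11.8%). Genes with a 7-base match had longer transcripts, with a median of 4293 bases, than the genes with none, with 2720 bases. Genes were not matched for 3′ UTR length, and its part in these shares was not tested. After removal of the length trend, 24.8% and 24.6% of the genes of the first pair of windows were called lower, and their medians were −0.05 and −0.05. Whether the guide of shRNA2 bound these messages, or started at another base, was not tested.

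**Figure D3:**
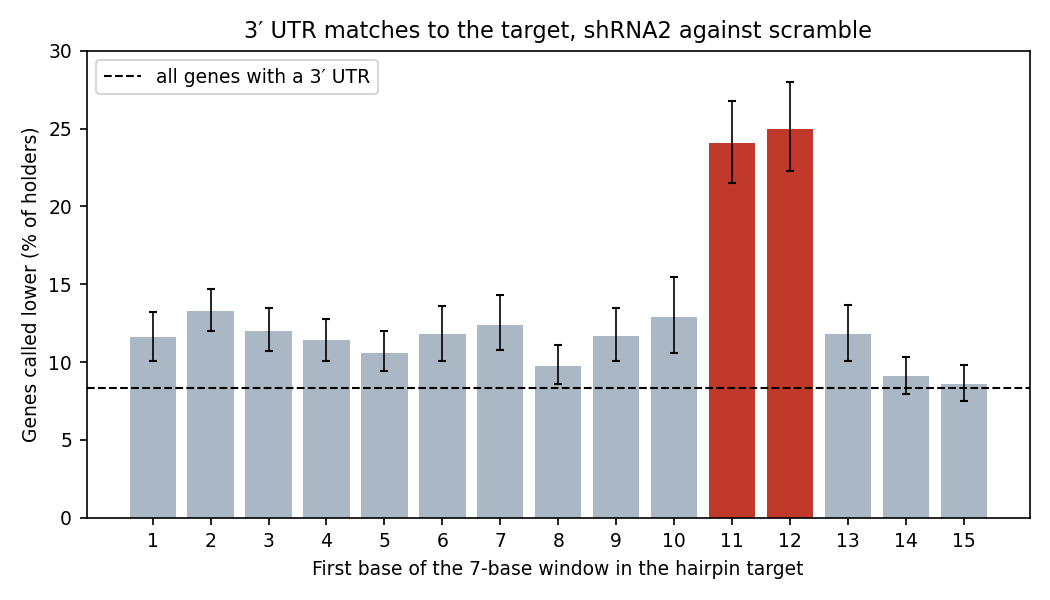
Share of genes called lower with shRNA2, in percent, among tested genes whose 3′ UTR holds each of the 15 windows of 7 bases along the hairpin target, by the first base of the window. Error bars are 95% Wilson intervals, the dashed line is the share of all genes with a 3′ UTR (8.31%), and the windows that start at bases 11 and 12 stand at 24.1% and 25%.

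The difference, as measured and with the length trend left in, was present in each shRNA2 library. Genes with the 8-base match had a median transcript length of 4508 bases, beside 2720 bases for genes with no match. The length relation of each library is given below, and its part in the values by library was not tested. The stretch was found with these same shRNA2 and scramble libraries, so their values are a description and not an independent test. The median log2 level of genes with the 8-base match, relative to the mean of the scramble libraries and minus the same median of genes with no match, was −0.18, −0.09 and −0.21 in shRNA2 replicates 1, 2 and 3. Each scramble library against the others gave −0.03, 0.03 and −0.01. In the shRNA1 libraries, which were not used to find the stretch, the value was −0.02, 0.00 and −0.04. By the 8-base match, all 3 shRNA2 libraries thus lay below all 6 libraries of the other groups, with replicate 2 the nearest to them. With any 7-base match the values were −0.12, −0.05 and −0.14 with shRNA2 and −0.03, −0.02 and −0.04 with shRNA1. The scramble libraries gave −0.03, 0.03 and −0.01. By that measure shRNA2 replicate 2 (−0.0457) was close to shRNA1 replicate 3 (−0.0427). In the 6 comparisons that left out a library, the share called lower ranged from 2.59% (without scramble replicate 2) to 32.0% (without shRNA2 replicate 2) among genes with a 7-base match, and from 0.109% to 8.14% in the same comparisons among genes with none.

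In a fit of all 9 libraries, shRNA1 and shRNA2 were each set against the same scramble libraries, which these comparisons therefore share. Of the genes with a 7-base match, 9.16% were called lower with shRNA1 and 30.1% with shRNA2. The shares were 8.01% and 12.6% of all genes with a 3′ UTR, and 7.27% and 11.4% of all genes tested. The direct comparison of shRNA2 with shRNA1 does not use the scramble libraries for its difference, but it uses the shRNA2 libraries with which the stretch was found. In it, 19.4% of the genes with a 7-base match were called lower with shRNA2. The share was 5.11% of all genes with a 3′ UTR and 4.8% of all genes tested. With the 8-base match the share was 30.5%, and the median log2 difference was −0.10.

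Of the 12 largest rises, *IL11*, a cytokine of the IL-6 family, had 11.5, 10.5 and 10.7 FPKM in scramble libraries and 19.1, 18.4 and 19.5 FPKM with shRNA2, a rise of 74.3% (log2 fold change 0.75, standard error 0.0459, limma adjusted p = 0.00415). *CXCL8*, a neutrophil chemokine, had 7.23, 6.44 and 8.39 FPKM in scramble libraries and 13.0, 13.9 and 11.8 FPKM with shRNA2, a rise of 75.2% (log2 fold change 0.74, limma adjusted p = 0.0152). *RGS2*, which limits signaling by G alpha subunits, had 5.13, 6.08 and 5.84 FPKM in scramble libraries and 9.23, 9.92 and 9.97 FPKM with shRNA2, a rise of 70.8% (log2 fold change 0.68, limma adjusted p = 0.00845). Scramble and shRNA2 libraries were well separated for *IL11* and *RGS2*, while the libraries of *CXCL8* were more spread within each group.

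*CD68*, a glycoprotein of lysosomes, rose from 18.1, 16.9 and 17.2 to 25.3, 25.7 and 25 FPKM (log2 fold change 0.52, limma adjusted p = 0.00496). *ODC1*, the ornithine decarboxylase that starts polyamine synthesis, rose from 87.7, 90 and 89.6 to 121, 126 and 123 FPKM (log2 fold change 0.47, limma adjusted p = 0.0046). *CCNB1IP1*, a ubiquitin ligase that binds cyclin B, rose from 35.2, 33.6 and 35.5 to 47.7, 48.7 and 48.2 FPKM (log2 fold change 0.46, limma adjusted p = 0.00558). *IL11*, *RGS2*, *CD68*, *ODC1* and *CCNB1IP1* were called in all 6 comparisons that left out a library. *NT5E*, the ectonucleotidase CD73, and *ETV4*, an ETS factor induced by ERK, each had a log2 fold change of 0.47. *DYNLT2B*, a dynein light chain, *VGF*, a secreted neuropeptide precursor, *MND1*, a meiotic recombination factor, and *SVBP*, a vasohibin partner, had log2 fold changes of 0.57, 0.50, 0.50 and 0.45. *CXCL8* and *ETV4* were called in 4 of the 6 comparisons, *MND1* in 3 and *DYNLT2B*, *VGF*, *NT5E* and *SVBP* in 2, with adjusted p-values by limma of up to 0.0823 (*DYNLT2B*, without scramble replicate 2).

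The log2 fold change depended on transcript length, which touches every gene list below. Across 12281 genes with a length, Spearman's rho was −0.367. Genes are not independent of each other, so no p is given. Of 10 groups of like size, the one with the shortest transcripts (median 544 bases) had a median log2 fold change of 0.11, and the one with the longest (median 7762 bases) had −0.09. Of the longest group, 19.3% were called lower and 1.71% higher. Relative to the mean of the 6 libraries, rho between length and level was 0.244, 0.462 and 0.236 in the scramble libraries and −0.324, 0.120 and −0.502 in shRNA2 replicates 1, 2 and 3, so shRNA2 replicate 2 had the sign of the scramble libraries. List values with the length trend of each library removed are therefore given beside those as measured. With the trend removed, 5.84% of genes were called higher and 7.84% lower.

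**Figure D4:**
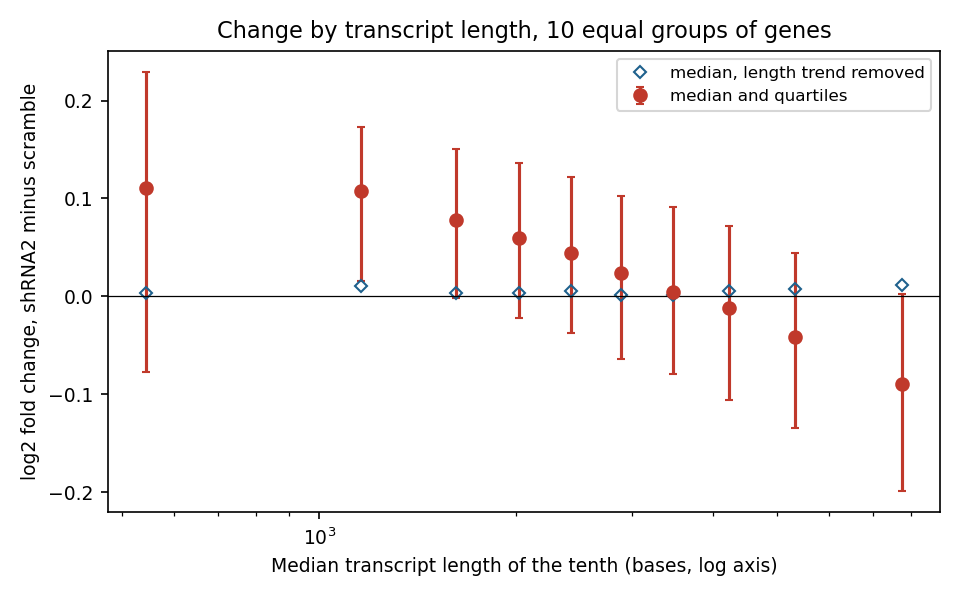
Log2 fold change, shRNA2 minus scramble, by transcript length in 10 groups of equal size, placed at the median length of each group in bases on a log axis. Red points and bars are the median and the quartiles over genes, and fell from 0.11 in the shortest group to −0.09 in the longest. Blue diamonds are medians after removal of the length trend, and lie near 0.

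Ribosomal RNA also differed between the groups. The entries of the 18S, 28S, 5.8S and 45S ribosomal RNAs held 0.244% to 0.261% of the summed FPKM in scramble libraries and 0.0798% to 0.0897% with shRNA2. Its part in the results on other genes was not tested. Estimated depth was 34.2 to 39.3 M fragments in scramble libraries and 32.8 to 38.6 M with shRNA2, so depth was similar in the groups.

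Gene lists of signaling, adhesion, metabolism and genome maintenance were described by counts and medians (see the plot of list medians). For all genes tested the median log2 fold change was 0.03, with 8.75% called higher and 7.55% lower. Of the 126 genes named for a list or by the study that were called, 12 were called in all 6 comparisons that left out a library, 105 in 1 to 5 and 9 in none.

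**Figure D5:**
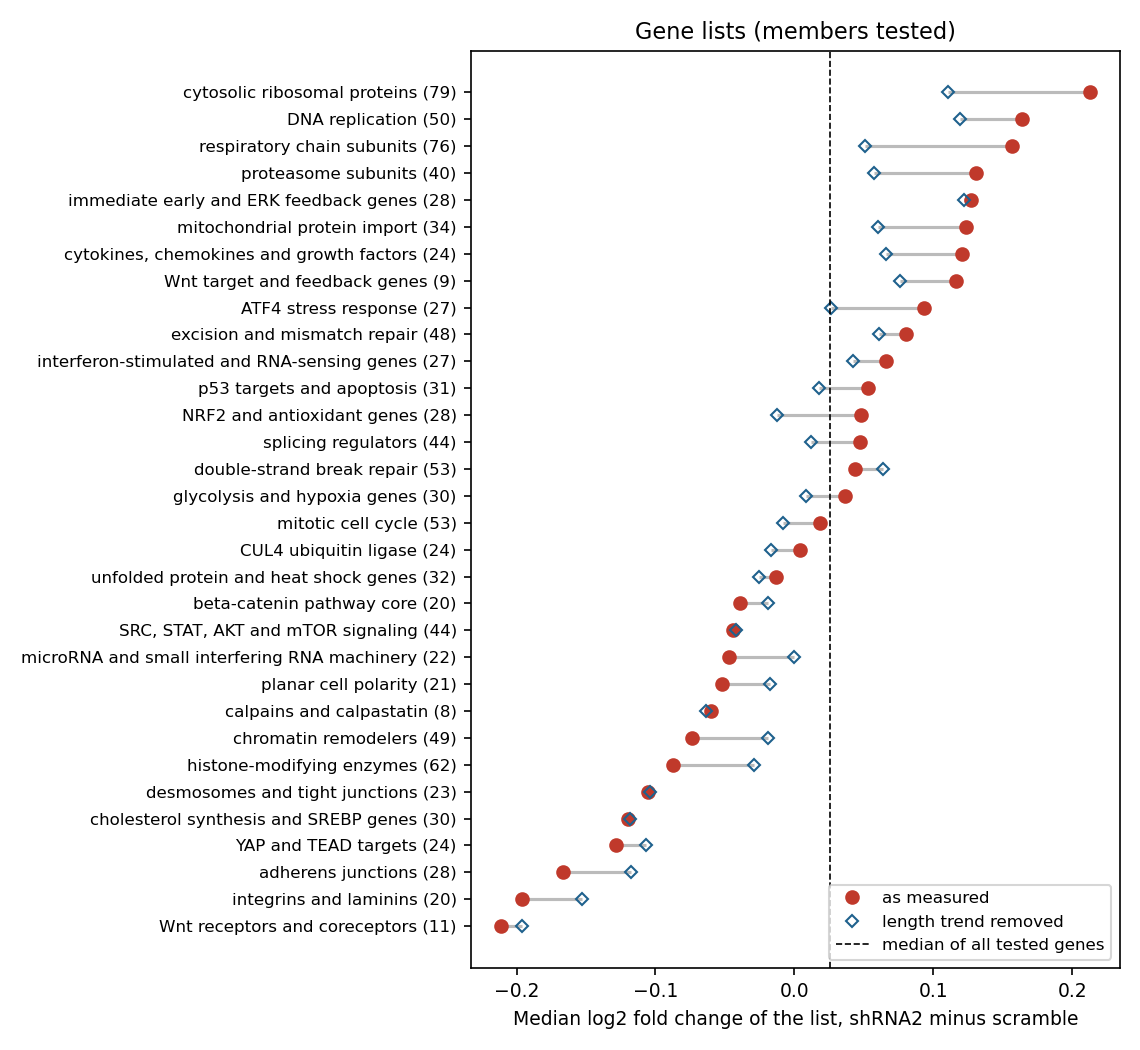
Median log2 fold change, shRNA2 minus scramble, of each list with at least 8 members tested, as measured (red points) and with the length trend of each library removed (blue diamonds), with the number of members tested in brackets. The dashed line is the median of all genes tested, 0.03. Wnt receptors (−0.21) and integrins and laminins (−0.20) lie lowest and cytosolic ribosomal proteins (0.21) highest, and the ribosomal and respiratory lists move most when the length trend is removed.

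Of 11 Wnt receptors and coreceptors tested, 6 were called lower and none higher, with a median of −0.21 (−0.20 with the length trend removed, 4 called lower). The 6 were *FZD6*, the Wnt coreceptors *LRP6* and *LRP5*, the R-spondin receptor *LGR4*, *FZD2* and the pseudokinase *PTK7*. *LRP6* had 4.41, 4.83 and 4.46 FPKM in scramble libraries and 3.28, 3.91 and 3.00 FPKM with shRNA2 (log2 fold change −0.34, limma adjusted p = 0.0441). *LGR4* had 13.4, 14.2 and 13.8 FPKM in scramble libraries and 10.4, 12.4 and 10.4 FPKM with shRNA2 (log2 fold change −0.30, limma adjusted p = 0.0444). Both were called in 1 of the 6 comparisons that left out a library, and the count of the list ranged from 1 to 6. *FZD6*, the target of the hairpin, was called in all 6. It was the only receptor called without scramble replicate 1, 2 or 3 and without shRNA2 replicate 3. None of the 6 called receptors held a match to ACCAATT or CCAATTA in the 3′ UTR.

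The ligands and release factors *WNT3*, *WNT7B*, *WNT10B*, *PORCN* and *WLS* had log2 fold changes of −0.14, −0.03, 0.12, −0.15 and 0.02, and none of the 5 was called. In the core of the beta-catenin pathway, 1 of 20 genes was called, the kinase *GSK3B* (log2 fold change −0.22, limma adjusted p = 0.0489), which held the 8-base match. None of the 20 was called with the length trend removed, and 0 to 2 were lower without 1 library. Of 9 target and feedback genes of Wnt signaling, 3 were called higher and 1 lower (median 0.12, and 0.08 with the length trend removed, 2 higher). *CCND1*, the cyclin D1 gene, rose from 64.0, 66.3 and 63.8 to 78.2, 79.5 and 75.3 FPKM (log2 fold change 0.26, limma adjusted p = 0.016). The transcription factor *SP5* and the secreted Wnt inhibitor *DKK1* had log2 fold changes of 0.20 and 0.16, and *SFRP1*, another inhibitor, −0.13. The call of *CCND1* was kept in 3 of the 6 comparisons that left out a library, that of *SFRP1* in 1, and those of *SP5* and *DKK1* in none. Of 21 planar cell polarity genes, 2 were called higher and 4 lower (median −0.05), led by *CELSR1* and its relative *CELSR2*, which went from 3.53, 3.67 and 3.45 to 2.51, 2.44 and 2.29 FPKM (log2 fold change −0.41, limma adjusted p = 0.00845). *PRICKLE3* and *FJX1* were the called rises, with log2 fold changes of 0.26 and 0.19. The polarity list, with the length trend removed, had a median of −0.02 and 2 calls in each direction, and 0 to 2 were higher and 1 to 5 lower without 1 library.

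Of 28 adherens junction genes, 11 were called lower and none higher, with a median of −0.17 (−0.12 with the length trend removed, 10 called lower). *MYH9*, a nonmuscle myosin heavy chain, fell from 208, 203 and 195 to 146, 148 and 135 FPKM (log2 fold change −0.50, limma adjusted p = 0.0085). The integrin adaptor *TLN1* had a log2 fold change of −0.43. Of 20 integrin and laminin genes, 11 were called lower and none higher, with a median of −0.20 (−0.15 with the length trend removed, 7 called lower). *NID1*, a basement membrane linker, fell from 7.59, 7.52 and 7.91 to 5.24, 4.92 and 4.89 FPKM (log2 fold change −0.53, limma adjusted p = 0.00537) and held a 7-base match. The laminin chain *LAMA5* fell from 25, 25.9 and 23.5 to 17.2, 18.2 and 15.8 FPKM (log2 fold change −0.51, limma adjusted p = 0.0132), and *LAMB2* had a log2 fold change of −0.38. Of 23 genes of desmosomes and tight junctions, 7 were called lower and none higher, with a median of −0.11 (−0.10 with the length trend removed, 5 called lower). They were led by the plaque proteins *EVPL* (log2 fold change −0.37, limma adjusted p = 0.00614) and *DSP* (−0.36) and the scaffold *TJP3* (−0.30).

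The members of the adhesion lists are long, with median transcript lengths of 4386 bases for adherens junctions, 4835 for desmosomes and tight junctions and 5700 for integrins and laminins, beside 2649 for all genes. Of the members called lower, 3 of 11, 2 of 7 and 3 of 11 in that order held a 7-base match, beside 38.5% of all genes called lower. In the comparisons that left out a library, 0 to 13 adherens junction genes, 1 to 12 integrin and laminin genes and 1 to 7 desmosome and tight junction genes were called lower. Each lowest count came without a scramble library, and each highest count came without shRNA2 replicate 2.

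Of 30 genes of cholesterol synthesis and the SREBP program, 10 were called lower and none higher, with a median of −0.12 (−0.12 with the length trend removed, 10 called lower). *FASN* led the list and was the only one of the 10 that held a 7-base match. *ACACA*, the acetyl-CoA carboxylase that supplies malonyl-CoA to fatty acid synthase, fell from 17.4, 18.6 and 17.4 to 12.3, 13.7 and 11.2 FPKM (log2 fold change −0.49, limma adjusted p = 0.0181). *MVD*, a decarboxylase of the mevalonate pathway, fell from 42.2, 41.4 and 41.6 to 32.1, 33.5 and 35.3 FPKM (log2 fold change −0.30, limma adjusted p = 0.0164). The others included *FADS2*, *LSS*, *FADS1*, *SCD*, *SREBF2* and *SCAP*. Leaving out a library gave 1 to 13 lower.

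Genes the study names for chromatin and DNA repair moved by different amounts. The histone methyltransferase *KMT2A* went from 4.73, 5.04 and 4.50 to 2.92, 3.47 and 2.65 FPKM, a fall of 36.7% (log2 fold change −0.53, limma adjusted p = 0.02), and holds 2 of the 7-base matches. The histone demethylase *KDM5B* went from 7.19, 7.41 and 7.18 to 5.56, 6.13 and 5.05 FPKM (log2 fold change −0.33, limma adjusted p = 0.029) and holds 1 match. *ARID1A*, a subunit of SWI/SNF remodelers, went from 15.1, 14.9 and 14.1 to 12.3, 12.6 and 10.8 FPKM (log2 fold change −0.28, limma adjusted p = 0.0383). *POLE*, the catalytic subunit of DNA polymerase epsilon, went from 9.64, 10.3 and 9.23 to 7.52, 7.90 and 7.10 FPKM (log2 fold change −0.33, limma adjusted p = 0.0215). *ARID1A* and *POLE* held no match, and each of these 4 genes was called in 1 of the 6 comparisons that left out a library. With the length trend removed, the log2 fold changes of *KMT2A*, *KDM5B*, *POLE* and *ARID1A* were −0.34, −0.20, −0.24 and −0.18, and that of *ARID1A* missed the threshold (limma adjusted p = 0.0513).

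The other genes that the study names did not pass the test, which is of RNA alone. The study reports *KMT2D*, *ENDOV* and *XPC* as lower by quantitative PCR and the *WEE1* transcript as unaffected. It names WEE1, ATM and XRCC1 for lower protein, and SRC, STAT3 and AKT1 for lower activity. *PKMYT1*, *PRKDC* and *PRKAB2* are named from a knockout screen, which is not a measure of their RNA. *KMT2D*, *PRKDC*, *ATM* and *WEE1* had log2 fold changes of −0.36, −0.48, −0.23 and −0.15 with adjusted p-values of 0.0863, 0.0596, 0.378 and 0.069 by limma. *SRC*, *STAT3*, *AKT1*, *PLK1* and *XPC* had log2 fold changes between −0.09 and −0.01. *ENDOV*, *PKMYT1*, *PRKAB2* and *XRCC1* had log2 fold changes of 0.17, 0.13, 0.15 and 0.10. *WEE1*, the kinase that restrains CDK1, had 8.24, 8.90 and 8.02 FPKM in scramble libraries and 7.46, 7.28 and 7.55 FPKM with shRNA2. Its groups did not overlap, which was also so for 16.7% of all genes in the lower direction. Of the genes in this paragraph, *KMT2D*, *PRKDC*, *STAT3* and *AKT1* did not overlap in the lower direction either. *PRKAB2* and *XRCC1* did not overlap in the higher direction, which was also so for 24% of all genes. The adjusted p of *WEE1* missed the threshold, and it was called in no comparison that left out a library.

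Chromatin lists had a share of lower calls above that of all genes, at long transcript lengths. Of 49 chromatin remodelers, 3 were called higher and 9 lower (median −0.07, and −0.02 with the length trend removed, 7 lower). *SMARCD1*, a SWI/SNF subunit, fell from 40.4, 38.8 and 39.6 to 30, 28.2 and 28.1 FPKM (log2 fold change −0.45, limma adjusted p = 0.00796), and *CHD6* and *BPTF* had log2 fold changes of −0.44 and −0.41. *SMARCD1* and *BPTF* held a match, as did 4 of the 9 in all. The subunits *ACTL6A*, *RUVBL1* and *RUVBL2* were the called rises (log2 fold changes 0.26, 0.22 and 0.14). Of 62 histone-modifying enzymes, 4 were called higher and 10 lower (median −0.09, and −0.03 with the length trend removed, 11 lower). The methyltransferase *SETD2* was among the falls (log2 fold change −0.32), and the arginine methyltransferase *PRMT5*, the Polycomb subunit *EED* and *KMT5A* were among the rises (0.21, 0.21 and 0.18). The counts without 1 library were 1 to 15 lower remodelers and 0 to 16 lower enzymes.

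Of 50 DNA replication genes, 22 were called higher and 2 lower, with a median of 0.16 (0.12 with the length trend removed, 9 called higher). *POLE2*, a subunit of polymerase epsilon, rose from 27.3, 28.7 and 28.9 to 34.5, 35.5 and 34.1 FPKM (log2 fold change 0.28, limma adjusted p = 0.0141). The origin recognition subunit *ORC1* and the initiation factor *MCM10* had log2 fold changes of 0.27 and 0.26. The 2 falls were *POLE* and the helicase subunit *MCM3* (log2 fold change −0.21, limma adjusted p = 0.0149). Without 1 library, 0 to 22 were called higher.

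Of 48 genes of excision and mismatch repair, 9 were called higher and 3 lower, with the endonuclease *APEX1* highest (log2 fold change 0.26, limma adjusted p = 0.0148) and the glycosylase *TDG* lowest (−0.31, limma adjusted p = 0.0228). Of 53 double-strand break repair genes, 5 were called higher and 2 lower. The falls were *FANCD2* and *RNF168*, with log2 fold changes of −0.27 and −0.19. Of 53 mitotic cell cycle genes, 3 were called in each direction, and the median of 0.02 turned to −0.01 with the length trend removed and with quantile normalization. The CDK inhibitor *CDKN1B* fell from 20.9, 20.6 and 21 to 15.4, 17.7 and 15.6 FPKM (log2 fold change −0.34, limma adjusted p = 0.0218), while *CDKN1A*, another inhibitor, had a log2 fold change of 0.19. *TDG*, *FANCD2*, *RNF168* and *CDKN1B* held a 7-base match. Leaving out a library gave 0 to 10 higher in excision and mismatch repair, 0 to 6 in double-strand break repair and 0 to 7 in the mitotic list. With the length trend removed, 5 excision and mismatch repair genes were called higher and 3 lower (median 0.06), and 7 double-strand break repair genes higher and 3 lower (median 0.06).

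Of 28 immediate early and ERK feedback genes, which respond to growth factor signaling, 11 were called higher and none lower, with a median of 0.13 (0.12 with the length trend removed, 12 called higher). They were *RGS2*, *ETV4*, *IER3*, *FOSL1*, *ETV5*, *ATF3*, *DUSP6*, *PHLDA1*, *SPRY2*, *DUSP4* and *JUN*, given in order of size. *IER3*, an early response gene that favours survival, rose from 77.3, 68.9 and 71.4 to 97.0, 92.5 and 98.2 FPKM (log2 fold change 0.40, limma adjusted p = 0.0145). The count ranged from 2 to 13 when a library was left out. Of the 28 genes, 5 held a 7-base match. Of 24 cytokine, chemokine and growth factor genes, 8 were called higher and 2 lower, with a median of 0.12 (0.07 with the length trend removed). After *IL11* and *CXCL8*, the EGFR ligand *AREG* rose from 40.8, 40.3 and 41.5 to 52.8, 50.7 and 52.5 FPKM (log2 fold change 0.34, limma adjusted p = 0.00845). *TGFB2*, a transforming growth factor that held the 8-base match, fell from 11.5, 11.8 and 11.6 to 7.51, 8.46 and 7.49 FPKM (log2 fold change −0.52, limma adjusted p = 0.0085), and *PDGFB* had −0.21. Leaving out a library gave 2 to 7 higher.

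Of 24 genes in the list of YAP and TEAD targets, which also includes *YAP1*, 7 were called lower, *YAP1* among them, and 2 higher. The median was −0.13, and −0.11 with the length trend removed (7 lower). *YAP1* itself fell from 21.3, 22.7 and 21.9 to 16.8, 18.2 and 16.4 FPKM (log2 fold change −0.34, limma adjusted p = 0.017) and held 2 matches of 7 bases, as 4 of the 7 falls held at least 1. *CRIM1* had a log2 fold change of −0.48 and no match, and *NT5E* was the larger rise. Without 1 library, 0 to 9 were called lower. Of 44 genes of SRC, STAT, AKT and mTOR signaling, 5 were called lower and 1 higher (median −0.04). The AMPK subunit *PRKAA1*, with the 8-base match, had a log2 fold change of −0.39 (limma adjusted p = 0.0165), and *MTOR* and the S6 kinase *RPS6KB1* had −0.33 and −0.32. The AMPK subunit *PRKAG1* was the called rise (0.19). Removal of the length trend left 4 lower and 1 higher (median −0.04), and 0 to 8 were lower without 1 library.

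Of 27 ATF4 response genes, 8 were called higher and none lower (median 0.09, and 0.03 with the length trend removed, 7 higher), among them *ATF3* (log2 fold change 0.30), *PPP1R15A* (0.25) and the asparagine synthetase *ASNS* (0.25). Leaving out a library gave 0 to 9 higher. Of 31 p53 target and apoptosis genes, 4 were called higher and 1 lower, with *PMAIP1*, which encodes the BH3-only protein NOXA, going from 8.73, 8.73 and 10.2 to 12.1, 13.8 and 12.8 FPKM (log2 fold change 0.44, limma adjusted p = 0.0222). *MCL1* and *GADD45A* had log2 fold changes of 0.28 and 0.20, and *PHLDA3* had −0.22. The median of the p53 list was 0.05, and 0.02 with the length trend removed (3 higher, 1 lower), with 0 to 5 higher without 1 library. Of 32 unfolded protein and heat shock genes, 2 were called higher, the chaperones *HSPA8* (0.25) and *DNAJB1* (0.22), and 4 were called lower, among them *EDEM1* (−0.33), *ATF6* (−0.24) and *HSPA5* (−0.19). *EDEM1* and *ATF6* held a match. Removing the length trend gave 2 higher and 5 lower, and 0 to 3 were higher and 0 to 5 lower without 1 library. Of 28 NRF2 and antioxidant genes, *OSGIN1* and *SOD1* were called higher (log2 fold changes 0.20 and 0.14) and the glutathione peroxidase *GPX2* and the sulfiredoxin *SRXN1* lower (−0.41 and −0.14), and the median of 0.05 turned negative with the length trend removed and with quantile normalization. There were 1 higher and 2 lower with the length trend removed, and without 1 library 0 to 3 were higher and 0 to 2 lower.

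Of 30 glycolysis and hypoxia genes, 2 were called higher and 3 lower, and the median of 0.04 turned negative with quantile normalization and was 0.01 with the length trend removed (1 higher, 3 lower). Without 1 library 0 to 3 were higher and 1 to 3 lower. Hexokinase *HK1* fell from 55.7, 54.7 and 54.7 to 40.4, 41.3 and 39.0 FPKM (log2 fold change −0.44, limma adjusted p = 0.00603) and was called in all 6 comparisons that left out a library. *EPAS1*, the gene of HIF-2 alpha, had a log2 fold change of −0.43. *HK1* held a 7-base match and *EPAS1* the 8-base match. Of 27 interferon-stimulated and RNA-sensing genes, 4 were called higher and 2 lower. The ubiquitin ligase *TRIM25* fell from 24.2, 24.7 and 23.6 to 17.6, 18.3 and 17 FPKM (log2 fold change −0.43, limma adjusted p = 0.00845) and held 2 matches, and the immunoproteasome subunit *PSMB8* rose from 8.08, 8.06 and 7.31 to 11.3, 9.94 and 10.4 FPKM (0.39, limma adjusted p = 0.0192). The median of the interferon list was 0.07, and 0.04 with the length trend removed (4 higher, 1 lower), and 0 to 4 were higher and 0 to 3 lower without 1 library.

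Of 79 cytosolic ribosomal protein genes, 44 were called higher and none lower, with a median of 0.21. With the length trend removed the median was 0.11, and 17 were called higher and 1 lower. The median transcript length of the list was 818 bases. *RPS26*, *RPL27* and *RPS12* had log2 fold changes of 0.31, 0.30 and 0.30, and genes of this family share reads with processed pseudogenes, so single values are uncertain. Of 76 respiratory chain subunits, 16 were called higher and none lower (median 0.16, and 0.05 with the length trend removed, 4 higher). Of 40 proteasome subunits, 9 were called higher and none lower (0.13, and 0.06 with 5 higher). Without scramble replicate 1 or 2 no member of the ribosomal, respiratory and proteasome lists was called, and without shRNA2 replicate 2 the counts were 63, 41 and 12.

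Of 34 mitochondrial import genes, 8 were called higher and 1 lower (median 0.12, and 0.06 with the length trend removed, 4 higher), and 0 to 8 were higher without 1 library. The lower one was *TIMM22*, a channel for carrier proteins in the inner membrane, which went from 12.1, 11.9 and 13.4 to 8.25, 7.59 and 8.09 FPKM (log2 fold change −0.58, limma adjusted p = 0.00845). It held the 8-base match and was called in all 6 comparisons that left out a library. Of 8 calpain genes, 1 was called, *CAPN2*, the catalytic subunit of m-calpain, which went from 177, 180 and 179 to 118, 120 and 116 FPKM (log2 fold change −0.59, limma adjusted p = 0.00243). It also held the 8-base match and was called in all 6 comparisons. Of 24 genes of the CUL4 ubiquitin ligase, 2 were called higher and 3 lower, *TRPC4AP*, *DCAF6* and *DCAF7*, and the median of 0.00 turned to −0.02 with the length trend removed and to −0.05 among genes with a mean of 5 FPKM or more. There were 1 higher and 4 lower with the length trend removed, and 0 to 3 were higher and 1 to 3 lower without 1 library. Of 22 genes of microRNA and small interfering RNA machinery, 1 was called higher and 2 lower. The scaffold *TNRC6A* had a log2 fold change of 0.20, the Argonaute *AGO4* −0.30 and the helicase *MOV10* −0.19. In this list 1 was called in each direction with the length trend removed, and 0 to 1 were higher and 0 to 5 lower without 1 library. Of 44 splicing regulators, 9 were called higher and 4 lower, among them *SRRM2* (log2 fold change −0.49, limma adjusted p = 0.0133) and *U2AF1* (0.45, limma adjusted p = 0.00855), whose reads cannot be told apart from those of a near-identical copy. The splicing list had a median of 0.05, and 0.01 with the length trend removed (4 in each direction), and 0 to 10 were higher and 0 to 4 lower without 1 library.

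The cells had the markers of an epithelial line. All 6 epithelial markers were at 1 FPKM or more, and their summed level was 1678 to 1721 FPKM in scramble libraries and 1627 to 1702 FPKM with shRNA2. *EPCAM* rose from 17.3, 18.2 and 17.5 to 22.4, 23.4 and 21.4 FPKM (log2 fold change 0.33, limma adjusted p = 0.0148), while *CDH1*, the E-cadherin gene, fell from 4.55, 4.46 and 5.02 to 3.57, 3.38 and 3.41 FPKM (−0.35, limma adjusted p = 0.0154). None of 6 fibroblast and 4 endothelial markers reached 1 FPKM. Of 6 luminal prostate markers 1 did, and of 7 neuroendocrine markers 1 did, *ENO2*. Of 6 leukocyte markers, *CD68* and *CD14* reached 1 FPKM while *PTPRC* and *CD3E* were listed at 0 in all 6 libraries, and the summed level of the markers was 18.1 to 19.2 FPKM in scramble libraries and 26.0 to 27.9 FPKM with shRNA2.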

How the data were processed

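Per the sample labels and the methods, the authors prepared stranded mRNA libraries from DU145 cells, mapped reads by STAR, and Cufflinks gave the FPKM values. The deposited FPKM are listed per RefSeq transcript and locus. The loci and the submitters' processing notes are of hg38, alternate contigs included, whereas the methods give mm10. These values are scaled for depth and transcript length, and no read counts were used here. Depth was estimated from the confidence bounds of single-transcript genes.

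Of 73240 accessions, 72639 matched a gene of RefSeq (GRCh38.p14). The 601 others held 0.397% to 0.436% of FPKM. FPKM were summed per gene over 27860 genes, and 38 genes with an entry not marked usable were left out. Genes that averaged 1 FPKM or more in the 6 libraries were tested on log2(FPKM + 1) with limma 3.58.1 in R 4.3.3, without covariates, with Benjamini-Hochberg adjustment over all genes and a threshold of 0.05. Such fold changes understate changes of low genes. The script was tested on simulated data.

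Named genes were *FZD6*, those the study names, the 12 largest rises and falls by log2 fold change among called protein-coding genes with at least 5 FPKM in the higher group and no overlap between groups, and up to 3 called members of each list per direction (all where a list had up to 5 members). Genes named outside this rule complete a count or were chosen after their values were seen. Some genes that the rule names are not reported here. The members and lists were chosen with earlier results of these data known.

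Transcript lengths came from GENCODE 29 transcripts of any type, and 3′ UTRs from its protein-coding transcripts. A gene was scored as holding a match when any of its 3′ UTRs contained the letters on the message strand. The length trend was removed per library by lowess (span 0.3). The hairpin sequence was read from the supplementary oligo table by its number. Python 3.11.15 was used with matplotlib 3.10.9, scipy 1.17.1, numpy 2.4.6 and pandas 2.3.3.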

Additional observations from a re-analysis of the deposited data

How the results depend on the processing

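*FZD6* kept its direction and its call in all 19 alternatives, with log2 fold changes of −1.34 to −1.11. Called genes numbered 77 to 2765 (11 to 1450 higher, 66 to 1315 lower) when a library was left out, and genes meeting the study's criteria 360 to 692. The deviations of same-numbered libraries from the mean of their own group correlated across genes at 0.061, 0.027 and 0.036. Each was the best of its own number, which is a hint from the data and not a pairing by the design. With the replicate number as a block, limma called 1067 genes (477 higher, 590 lower) and 342 met the study's criteria. With the replicate block and the length trend removed, 394 were called (84 higher, 310 lower) and 291 met the criteria. With all 9 libraries in the fit, 3351 were called (1924 higher, 1427 lower). The relation with length had a rho of −0.254 without a filter, 0.020 with the length trend removed, with or without the block, and −0.456 to −0.253 when a library was left out. The share of genes called lower was 9.08% for the designed seed match, and for target windows starting at bases 1 to 7 it was 11.6%, 13.3%, 12%, 11.4%, 10.6%, 11.8% and 12.4%. For windows starting at bases 9 to 13 it was 11.7%, 12.9%, 24.1%, 25% and 11.8%, and for bases 11 to 18 together 35.5%. These windows were added after the data were seen. No called named gene changed sign, while *XPC*, *PLK1*, *WLS*, *KRT18* and *ENO2*, which were not called, lay on both sides of 0. Over the alternatives, calls of named genes were unchanged in 2337 cases, lost in 813 and gained in 20. Leaving out a library gave fewer calls except for shRNA2 replicate 2, without which there were more, and the cause was not tested. With 3 libraries per group, small changes and genes near 1 FPKM are the least certain.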

Other observations

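Entries of short noncoding RNAs stood among the largest differences but rest on few fragments, and libraries of long messages do not measure mature microRNAs or small nucleolar RNAs. The 107-base entry of *MIR3934* was listed at 0 FPKM in every scramble library and at 10.6, 10.2 and 9.04 FPKM with shRNA2. The 126-base entry of *SNORA28* was listed at 0 FPKM in every scramble library and at 5.47, 5.27 and 9.30 FPKM with shRNA2. The 72-base entry of *MIR4470* was listed at 0 FPKM in every scramble library and at 279, 67.1 and 59.2 FPKM with shRNA2. The 89-base entry of *MIR4724* was at 9.75, 10.4 and 29.3 FPKM in scramble libraries and at or near 0 with shRNA2. No fold change is given for these entries.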
